A study of Mus musculus with 35 samples.

Results

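Cxcl1, Cxcl2, Cxcl5, Ppbp and Pf4 are mouse CXC chemokine genes whose products draw neutrophils or are stored in platelets, and they were followed here through the course of tracheal grafts. The members were the probe sets annotated to exactly 1 of these genes. Each gene had 1 such probe set, which gave 5 probe sets for 5 of the 12393 genes named on the array: 1419209_at (Cxcl1), 1449984_at (Cxcl2), 1419728_at (Cxcl5), 1418480_at (Ppbp) and 1448995_at (Pf4). All 5 passed the filter on low values (5 or more arrays with a log2 level of 5 or above), as did 13678 of 22626 probe sets.

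Total RNA of tracheal tissue was hybridised to 35 Affymetrix arrays in 7 groups of 5. Tracheas placed heterotopically, away from their normal site, in recipients of incompatible MHC are the allografts (day 4, day 14 and day 25 after transplantation), those placed in MHC-compatible recipients are the isografts of the same days, and untransplanted native tracheas (day 0) are the controls. Strain, age, sex and any drug given are not stated in the sources used here, and no label says that the arrays of a group came from separate animals, so the p-values measure the spread between arrays. A graft holds donor tissue and the recipient cells that enter it, and no label separates them.

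Cxcl1, Cxcl2 and Cxcl5 carry the ELR motif before their first cysteines and act on the receptor Cxcr2 of neutrophils, which they guide out of blood into inflamed tissue. Macrophages, neutrophils, epithelium and stroma make them after signals such as interleukin 1 or tumour necrosis factor, through NF-kappaB. Ppbp encodes a platelet alpha-granule protein that proteases trim to an active Cxcr2 ligand, and Pf4 encodes platelet factor 4, a heparin-binding alpha-granule protein without the ELR motif. Platelets have no nucleus and take most of their RNA from megakaryocytes, but some monocytes and macrophages of the mouse also transcribe Pf4.

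The members are neighbours on mouse chromosome 5, where the order of annotated genes is Rassf6, Cxcl5, Ppbp, Pf4, Cxcl3, Cxcl15, Cxcl1, Cxcl2 and Mthfd2l. RefSeq windows of 300 bases, from 250 before to 50 after the annotated start (build GRCm38.p6), were available for 4 of the 5 members, and are shown to set the start regions of the neutrophil attractant genes beside those of the platelet genes. Cxcl1 lies at chr5:90890995-90891294, Cxcl2 at chr5:90903649-90903948, Ppbp at chr5:90768268-90768567 and Pf4 at chr5:90772185-90772484, all on the plus strand. Capitals mark the matches to the consensus of NF-kappaB in the windows of Cxcl1 and Cxcl2. In Ppbp and Pf4 they mark CACTTCC, the core of a site for factors of the Ets family. In Pf4 the second stretch of capitals is AGATAA, the core of a site for Gata factors, which like Ets factors are known regulators of megakaryocyte genes.
Cxcl1: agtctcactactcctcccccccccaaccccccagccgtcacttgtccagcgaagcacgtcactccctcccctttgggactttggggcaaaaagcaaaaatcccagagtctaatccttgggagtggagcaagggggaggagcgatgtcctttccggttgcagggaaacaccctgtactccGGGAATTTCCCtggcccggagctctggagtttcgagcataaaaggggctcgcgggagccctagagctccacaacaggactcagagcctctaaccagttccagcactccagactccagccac
Cxcl2: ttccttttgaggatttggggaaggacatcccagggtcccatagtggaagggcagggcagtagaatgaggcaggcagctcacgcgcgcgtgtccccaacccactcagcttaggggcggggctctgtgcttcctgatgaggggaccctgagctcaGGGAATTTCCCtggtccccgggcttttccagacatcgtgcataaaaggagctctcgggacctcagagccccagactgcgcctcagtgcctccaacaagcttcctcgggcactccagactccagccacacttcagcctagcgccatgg
Ppbp: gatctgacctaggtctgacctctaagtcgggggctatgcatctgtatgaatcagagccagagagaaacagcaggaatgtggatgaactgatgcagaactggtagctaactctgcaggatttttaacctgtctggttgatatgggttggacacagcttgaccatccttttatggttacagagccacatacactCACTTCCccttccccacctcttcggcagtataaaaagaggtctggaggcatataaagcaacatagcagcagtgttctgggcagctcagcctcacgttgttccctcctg
Pf4: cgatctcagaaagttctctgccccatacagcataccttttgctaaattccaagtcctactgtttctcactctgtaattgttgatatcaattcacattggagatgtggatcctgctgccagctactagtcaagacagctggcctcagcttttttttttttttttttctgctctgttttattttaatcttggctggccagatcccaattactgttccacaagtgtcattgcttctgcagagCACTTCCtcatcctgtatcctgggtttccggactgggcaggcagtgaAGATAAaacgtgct
Both strands were searched, and matches to different motifs did not overlap. The NF-kappaB consensus matched on both strands, in overlapping letters. The plus strand match began 71 bases before the start of Cxcl1 and 97 bases before that of Cxcl2. The minus strand match lay at 70 and 96 bases. Of the 32851 windows of this length in the table, 2779 (8.46%) held a match. The Ets letters began 58 bases before the start of Ppbp and 11 bases before that of Pf4 and were in 3615 windows, and the Gata letters, which in Pf4 lay after the start, were in 3672 windows (11.2%). The longest run of letters that the Cxcl1 and Cxcl2 windows shared was 20 bases, against 7 to 9 for the other 5 pairs of windows. A match is a description of the letters and no evidence of binding.

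Array medians lay between 5.07 and 5.30 (log2), and 51.0% to 54.3% of probe sets per array were at least 5. Replicate 5 of the native group and replicate 5 of the day 25 isografts correlated least with their own groups and had the highest mean levels of a skin marker list in them. That list stood at 5.60 in day 25 isograft replicate 5, against 3.66 to 3.73 in the other 4 arrays, and at 6.31 in native replicate 5, against 3.29 to 3.51. It also reached 5.32 in day 4 allografts and 5.14 in both day 4 and day 14 isografts. Leaving out the 2 arrays therefore does not remove all arrays with high levels of the list. Native tracheas expressed the markers of their tissue, with list means of 10.62 to 11.36 for airway epithelium and 8.17 to 9.88 for cartilage. Where leaving out native replicate 5 and day 25 isograft replicate 5 changes a call on a member, the value without them is given beside the result.

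**Figure D1:**
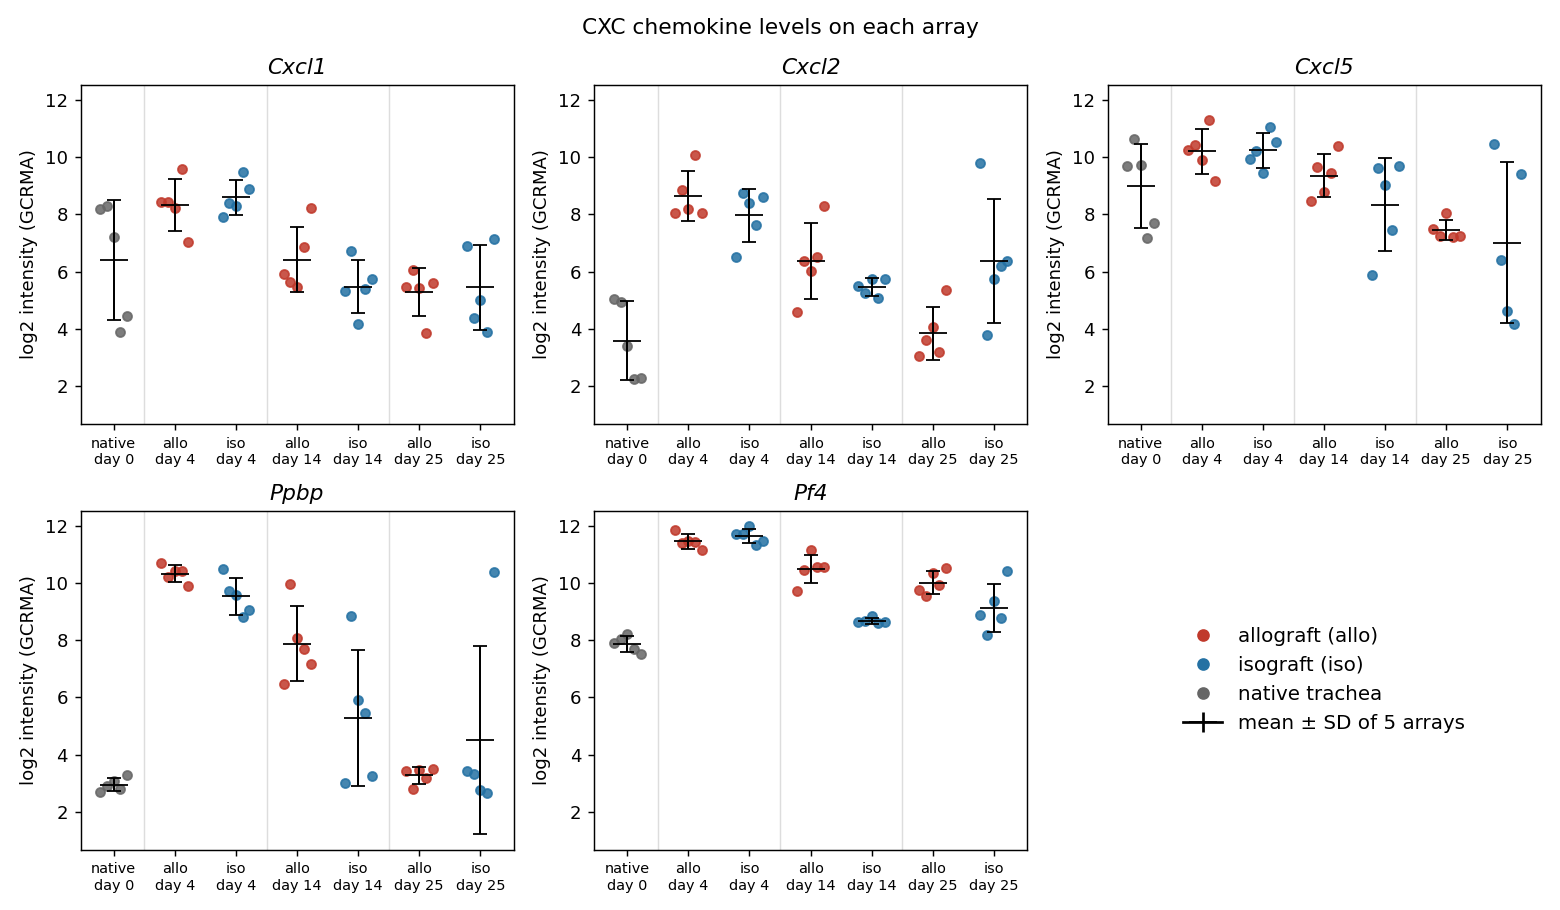
Log2 intensity of the 5 chemokine probe sets (y axis) on each of the 35 arrays by group and day (x axis), where a point is 1 array and the black marks are the mean and SD of 5 arrays. All 10 day 4 grafts lie above every native array for Cxcl2, Ppbp and Pf4, Pf4 of the day 14 allografts lies above all day 14 isografts, and 1 day 25 isograft stands at 10.38 for Ppbp while the other 4 lie at or below 3.43.

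On the fourth day after transplantation the neutrophil attractants Cxcl1 and Cxcl2 were higher in both kinds of graft than in native trachea. So were Ppbp and Pf4, the genes of platelet granule proteins, and Cxcl5 did not pass the test in either. Against native trachea, 4 of 5 members were called higher in day 4 allografts and 4 of 5 in day 4 isografts (limma over 7 group means, Benjamini-Hochberg adjusted p under 0.05). Over all probe sets, 44.8% were called in the allograft comparison (22.2% higher) and 44.3% in the isograft comparison (21.1% higher, or 2887 against 3167 lower, which came to 3691 higher and 2498 lower when arrays were centred on their median). All 6 contrasts of a graft group with native trachea use the same 5 native arrays. In bulk tissue, fewer cells of a type and less RNA per cell cannot be told apart.

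Cxcl1, known in the mouse as KC, had log2 levels of 8.44, 8.41, 8.21, 9.58 and 7.04 in day 4 allografts and 7.91, 8.40, 8.29, 9.47 and 8.88 in day 4 isografts, against 8.18, 8.30, 7.20, 3.89 and 4.43 in native tracheas. Native replicates 4 and 5 were far lower than native replicates 1 to 3, and the grafts overlapped the 3 higher native arrays. The difference from native trachea was 1.94 in allografts (SE 0.73, 3.83-fold, adjusted p = 0.0313) and 2.19 in isografts (SE 0.73, 4.56-fold, adjusted p = 0.0161). The allograft call was lost without native replicate 4 (1.31, adjusted p = 0.142), without native replicate 5 (1.45, adjusted p = 0.111), and without allograft replicates 1, 2 or 4 (1.91, 1.92 and 1.63, adjusted p 0.0515, 0.0501 and 0.0928). It was also lost with array weights (1.05, adjusted p = 0.183), with only the arrays compared (adjusted p = 0.0859), and without native replicate 5 and day 25 isograft replicate 5 (1.45, adjusted p = 0.0976). The isograft call was lost without native replicate 4 (1.56, adjusted p = 0.0797) or native replicate 5 (1.70, adjusted p = 0.0624), the second also with day 25 isograft replicate 5 left out (adjusted p = 0.0535).

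Cxcl2, or MIP-2, is made in large amounts by macrophages and neutrophils. Its levels were 8.03, 8.84, 8.18, 10.08 and 8.06 in day 4 allografts and 6.50, 8.74, 8.39, 7.63 and 8.59 in day 4 isografts, against 5.06, 4.94, 3.38, 2.24 and 2.27 in native tracheas. No graft overlapped a native array, and native replicates 4 and 5 were again the lowest. Cxcl2 rose by 5.06 in allografts (SE 0.74, 33.3-fold, adjusted p = 1.97e-06) and by 4.39 in isografts (SE 0.74, 21.0-fold, adjusted p = 1.91e-05). Native levels this low lie in a range that the authors' background correction sets, so the folds are less certain than the direction.

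Cxcl5, which airway epithelium and platelets of the mouse can make, had levels of 10.24, 10.42, 9.90, 11.31 and 9.15 in day 4 allografts and 9.94, 10.22, 9.44, 11.04 and 10.54 in day 4 isografts. Native tracheas stood at 9.68, 10.61, 9.73, 7.19 and 7.70. Replicates 4 and 5 were the low native arrays for this gene too, while the other 3 lay among the grafts. The difference from native trachea was 1.22 in allografts (95% interval -0.51 to 2.96, adjusted p = 0.25) and 1.26 in isografts (95% interval -0.48 to 2.99, adjusted p = 0.237), so a rise of several-fold is within these intervals. The mean level of 22 listed inducers and NF-kappaB feedback genes was also lowest in native replicates 4 and 5, at 4.99 and 5.19, against 5.34 to 5.56 in the other native arrays, and its part in the chemokine levels was not tested.

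Ppbp was near the bottom of the scale in native trachea and among the higher levels of the scale in day 4 grafts. Its levels were 10.69, 10.19, 10.41, 10.43 and 9.88 in day 4 allografts and 10.47, 9.70, 9.59, 8.81 and 9.04 in day 4 isografts, against 2.69, 2.91, 3.07, 2.80 and 3.29 in native tracheas. The native arrays were close together near the bottom of the scale, and every graft was far above them. Ppbp rose by 7.37 in allografts (SE 0.97, 165-fold, adjusted p = 3.44e-07) and by 6.57 in isografts (SE 0.97, 95.1-fold, adjusted p = 2.71e-06). All native values lay below 5, the level of the filter, in a range that the authors' background correction sets, so the size of the fold is uncertain and is not ranked against that of the other members.

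Pf4 had levels of 11.84, 11.39, 11.45, 11.42 and 11.14 in day 4 allografts and 11.69, 11.72, 11.98, 11.32 and 11.48 in day 4 isografts, against 7.90, 8.04, 8.23, 7.69 and 7.51 in native tracheas. Its native levels were well above the filter, and neither kind of graft overlapped them. The rise was 3.57 in allografts (SE 0.27, 11.9-fold, adjusted p = 6.46e-12) and 3.76 in isografts (SE 0.27, 13.6-fold, adjusted p = 2.83e-12). Cxcl2, Ppbp and Pf4 were thus 3 of 5 members whose arrays did not overlap native trachea at day 4, where 14% of probe sets were higher without overlap in allografts and 12.6% in isografts.

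**Figure D2:**
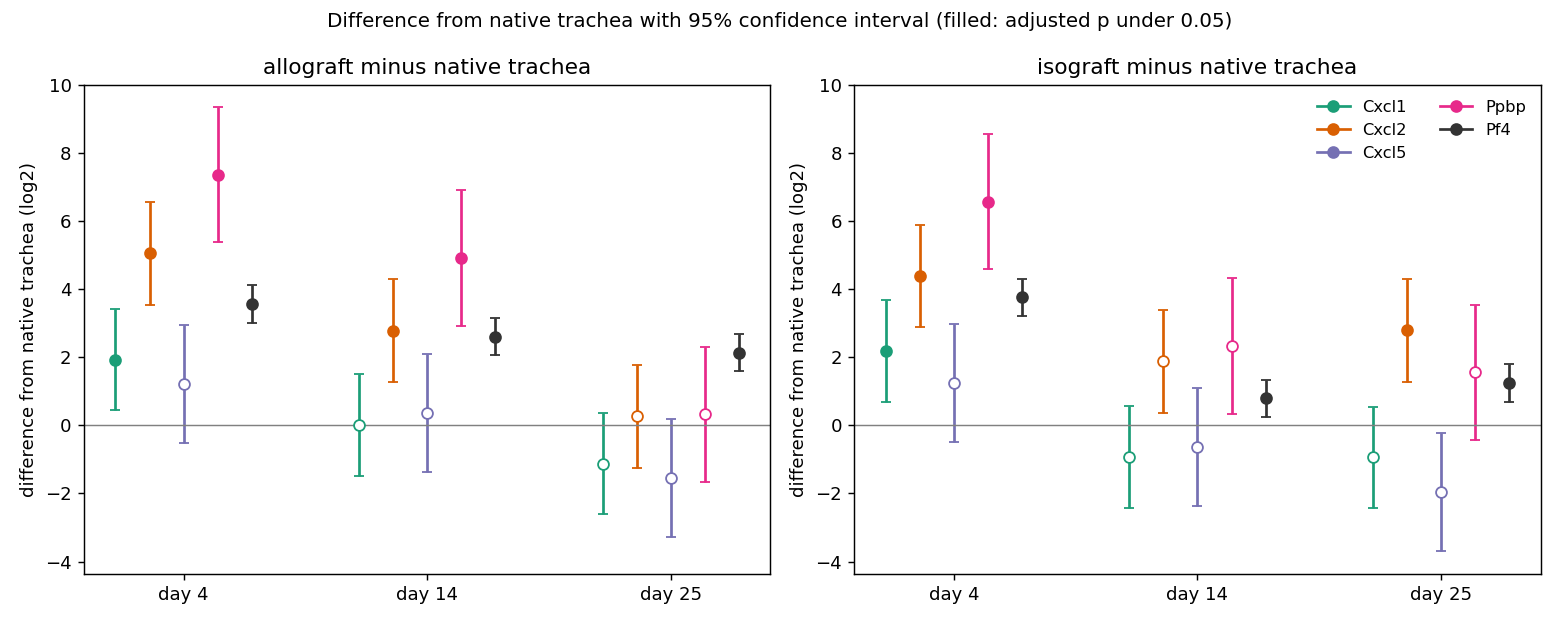
Difference of each chemokine from native trachea (y axis, log2) at days 4, 14 and 25 (x axis) in allografts (left) and isografts (right), with 95% confidence intervals, from 5 arrays a group; filled points passed the test. Ppbp, Cxcl2 and Pf4 are filled at day 4 in both panels, all above 3, and at day 25 Pf4 alone is filled in allografts, while Cxcl2 and Pf4 are filled in isografts.

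Between day 4 allografts and day 4 isografts, none of the 5 members differed by the test, and 0 of them had an unadjusted p under 0.05. Over all probe sets, 0.6% were called and 730 had an unadjusted p under 0.05 (limma). The allograft minus isograft differences were -0.25 for Cxcl1 (95% interval -1.74 to 1.24), 0.67 for Cxcl2 (-0.85 to 2.18), -0.03 for Cxcl5 (-1.77 to 1.70), 0.80 for Ppbp (-1.19 to 2.78) and -0.19 for Pf4 (-0.74 to 0.36). The interval was narrow for Pf4 and wide for the other members, whose intervals each include a 2-fold difference in 1 direction or both. These intervals use a spread estimated over all 7 groups, not over the day 4 arrays alone. For Ppbp the SD was 0.30 in day 4 allografts and 0.65 in day 4 isografts, but 2.37 in day 14 isografts and 3.30 in day 25 isografts. The median of the 5 differences was -0.03, against 0.01 over all probe sets tested.

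At day 14 Pf4 was higher in allografts than in isografts and was the 1 member of 5 called, against 18.4% of all probe sets (10% higher). Its levels were 9.73, 10.44, 11.14, 10.54 and 10.56 in day 14 allografts, against 8.64, 8.68, 8.83, 8.59 and 8.62 in day 14 isografts. The isograft arrays lay close together and all allografts were above them, as for 7.57% of probe sets. Pf4 was higher by 1.81 (SE 0.27, 3.51-fold, adjusted p = 6.16e-06), and leaving out any 1 array gave 1.65 to 2.00. The allograft minus isograft difference of Pf4 itself changed between the days, by 2.00 at day 14 compared with day 4 (SE 0.38, adjusted p = 0.000799), where 6.38% of probe sets had a called change.

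Ppbp varied widely between arrays at day 14. Its levels were 6.47, 9.97, 8.07, 7.70 and 7.16 in day 14 allografts, against 3.00, 8.85, 5.89, 5.44 and 3.25 in day 14 isografts. Isograft replicates 1 and 5 were at native levels, isograft replicate 2 was above 4 of the 5 allografts, and the groups overlapped. Ppbp differed by 2.59 (SE 0.97, 6.01-fold, 95% interval 0.60 to 4.57), which missed the threshold (adjusted p = 0.0621). Without isograft replicate 2 the difference was 3.48 (adjusted p = 0.00828) and without allograft replicate 1 it was 2.94 (adjusted p = 0.0443), both past the threshold. Leaving out native replicate 5 and day 25 isograft replicate 5, which are in neither group, lowered the estimated spread and gave the same 2.59 with adjusted p = 0.00438.

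The 3 neutrophil attractants were not called between graft types at day 14, and the median difference of the 5 members was 1.01, against 0.05 over all probe sets. Cxcl1 had 5.90, 5.64, 5.47, 6.87 and 8.21 in day 14 allografts, against 5.33, 6.73, 4.15, 5.38 and 5.75 in day 14 isografts (0.95, 95% interval -0.55 to 2.44). Cxcl2 had 4.58, 6.38, 6.02, 6.51 and 8.30 in allografts, against 5.49, 5.26, 5.75, 5.07 and 5.76 in isografts (0.89, 95% interval -0.62 to 2.40). The 5 isografts were close together for Cxcl2 and the allografts spread to both sides of them. Cxcl5 had 8.46, 9.66, 8.77, 9.46 and 10.37 in allografts, against 5.89, 9.62, 9.02, 7.47 and 9.69 in isografts (1.01, 95% interval -0.72 to 2.74). Allograft replicate 5 was the highest array of its group for Cxcl1, Cxcl2 and Cxcl5, and it was not the highest for Ppbp or Pf4.

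Set against native trachea at day 14, 3 of 5 members were called higher in allografts (46.1% of all probe sets called) and 1 of 5 in isografts (28.8% called). In allografts Cxcl2 was higher by 2.78 (SE 0.74, adjusted p = 0.00293), Ppbp by 4.92 (SE 0.97, adjusted p = 0.000122) and Pf4 by 2.61 (SE 0.27, adjusted p = 2.16e-09), and the arrays of Ppbp and Pf4 did not overlap the native ones (as for 14.1% of probe sets). In isografts Pf4 was higher by 0.80 (SE 0.27, adjusted p = 0.0262), a call that was lost without isograft replicate 3 (0.76, adjusted p = 0.0532) and without either of the low native arrays, replicate 4 (0.75, adjusted p = 0.0557) and replicate 5 (0.71, adjusted p = 0.0551). Cxcl2 of the day 14 isografts lay above every native array, as for 6.51% of probe sets. The margin was very small, with a lowest isograft level of 5.065 and a highest native level of 5.06. The Cxcl2 difference missed the threshold (1.89, adjusted p = 0.0544), which it passed without native replicate 1 (2.26, adjusted p = 0.0385) or native replicate 2 (2.23, adjusted p = 0.036). Ppbp of the day 14 isografts also missed it (2.33, adjusted p = 0.0693), and leaving out isograft replicate 1 (2.91, adjusted p = 0.0344) or 5 (2.84, adjusted p = 0.039) took it past. It was also called without native replicate 5 and day 25 isograft replicate 5 (2.42, adjusted p = 0.00902) and with array weights (2.68, adjusted p = 0.00946). Cxcl1 and Cxcl5 differed from native trachea by 0.02 and 0.36 in day 14 allografts and by -0.93 and -0.65 in day 14 isografts, and were not called, although array weights moved Cxcl1 in isografts to -1.78 (adjusted p = 0.0457).

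At day 25 the graft types differed in opposite directions for 2 members, with Cxcl2 lower and Pf4 higher in allografts. These were 2 of 5 members called, against 14.9% of all probe sets (8.53% lower and 6.38% higher, or 1167 and 872 probe sets, which came to 1473 lower and 661 higher when arrays were centred on the reference genes). Cxcl2 had 3.06, 3.60, 4.08, 3.19 and 5.35 in day 25 allografts, against 9.78, 3.79, 5.74, 6.19 and 6.36 in day 25 isografts. Isograft replicate 1 was far above the rest, isograft replicate 2 lay among the allografts, and the groups overlapped. Cxcl2 fell by 2.52 on the log2 scale in allografts relative to isografts (SE 0.74, 5.72-fold lower, adjusted p = 0.0166). Without isograft replicate 1 it was lower by less and no longer called (-1.67, adjusted p = 0.0868), and a fit on these 10 arrays alone did not call it either (-2.52, adjusted p = 0.108).

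Pf4 at day 25 had levels of 9.76, 9.53, 10.34, 9.91 and 10.51 in allografts, against 8.88, 8.19, 9.37, 8.76 and 10.42 in isografts. Isograft replicate 5 was above 4 of the 5 allografts, and the other isografts were below all of them. The difference was 0.88 (SE 0.27, 1.84-fold, adjusted p = 0.0216). The call was lost without isograft replicates 2 (0.65, adjusted p = 0.11) or 4 (0.79, adjusted p = 0.0676), without allograft replicates 3 (0.80, adjusted p = 0.0659) or 5 (0.76, adjusted p = 0.0761), and in a fit on these 10 arrays alone (0.88, adjusted p = 0.18). Without isograft replicate 5, the array with the high skin marker level, it was larger (1.21, adjusted p = 0.000251).

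Ppbp at day 25 was near native levels in every allograft and in 4 of 5 isografts. It had 3.43, 2.81, 3.46, 3.19 and 3.49 in day 25 allografts, against 3.43, 3.34, 2.76, 2.66 and 10.38 in day 25 isografts. Isograft replicate 5 alone held a level like that of the day 4 grafts, and it also had the highest Pf4 level of its group. The difference of -1.24 (95% interval -3.22 to 0.75, adjusted p = 0.486) came to 0.23 without that array.

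Cxcl1 and Cxcl5 were not called between graft types at day 25. Cxcl1 had 5.46, 6.06, 5.41, 3.87 and 5.60 in day 25 allografts, against 6.88, 4.37, 5.01, 3.87 and 7.16 in day 25 isografts (-0.18, 95% interval -1.67 to 1.31). Cxcl5 had 7.47, 7.26, 8.04, 7.21 and 7.26 in allografts, against 10.44, 6.41, 4.63, 4.19 and 9.39 in isografts (0.44, 95% interval -1.30 to 2.17). The Cxcl5 allografts were close together, while isograft replicates 1 and 5 were above and the other 3 isografts below every allograft. The same isograft replicates, 1 and 5, were the 2 highest of their group for Cxcl1, Cxcl2 and Cxcl5.

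Against native trachea at day 25, 1 of 5 members was called in allografts (36% of all probe sets called) and 2 of 5 in isografts (16.1% called). The isograft share rests on 2203 probe sets, which came to 1425 without native replicate 1. Pf4 was higher by 2.14 in allografts (SE 0.27, 4.39-fold, adjusted p = 1.1e-07) and by 1.25 in isografts (SE 0.27, 2.38-fold, adjusted p = 0.00175). Cxcl2 differed from native trachea by 0.27 in allografts (95% interval -1.24 to 1.79) and was higher by 2.79 in isografts (SE 0.74, adjusted p = 0.0103), a call lost without isograft replicate 1 (1.94, adjusted p = 0.051) and with only the arrays compared (adjusted p = 0.0869). Cxcl5 stood below native trachea by -1.53 in allografts (adjusted p = 0.16) and -1.97 in isografts (adjusted p = 0.11), and the isograft difference passed the threshold when isograft replicate 1 (-2.83, adjusted p = 0.0187) or 5 (-2.57, adjusted p = 0.0407) was left out, as it did without the pair of native replicate 5 and day 25 isograft replicate 5 (-2.89, adjusted p = 0.0247). Cxcl1 differed by -1.12 in allografts and by -0.94 in isografts, and was not called.

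**Figure D3:**
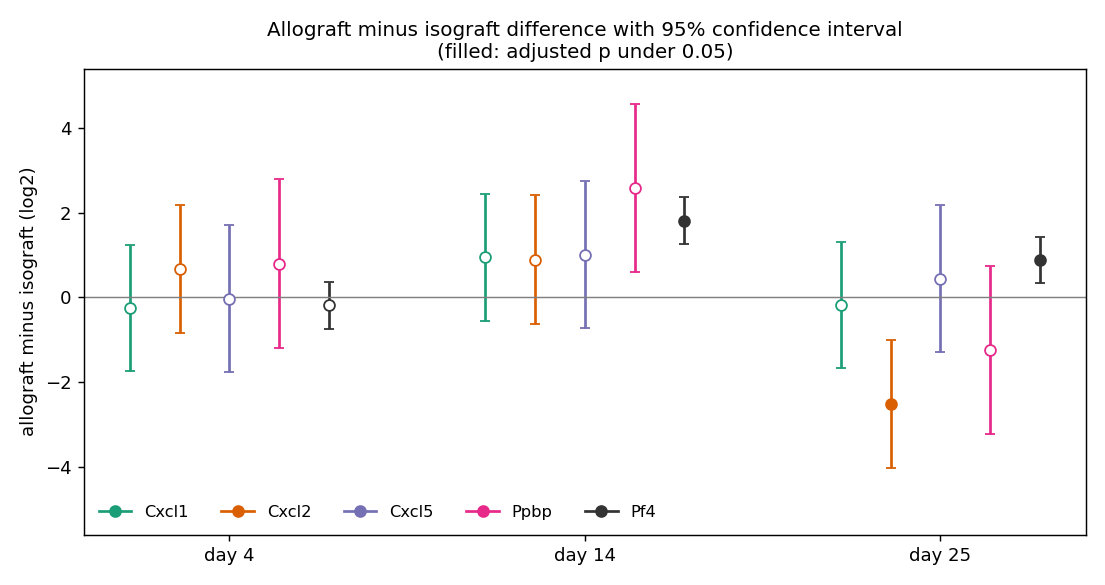
Allograft minus isograft difference of each chemokine (y axis, log2) at days 4, 14 and 25 (x axis), with 95% confidence intervals from 5 arrays a group; filled points passed the test. No point is filled at day 4, Pf4 is filled at 1.81 on day 14 and 0.88 on day 25, and Cxcl2 is filled at -2.52 on day 25.

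Within isografts, 4 of 5 members were lower at day 14 than at day 4, where 22% of all probe sets were called (12.8% lower). Centring the arrays on the reference genes turned that split, with 1150 probe sets lower and 1851 higher, against 1752 lower and 1256 higher, and kept the 4 member calls. Cxcl1 fell by 3.12 (SE 0.73, adjusted p = 0.00228), Cxcl2 fell by 2.51 (SE 0.74, adjusted p = 0.014), Ppbp fell by 4.24 (SE 0.97, adjusted p = 0.00189) and Pf4 fell by 2.96 (SE 0.27, adjusted p = 3.38e-09). Cxcl5 differed by -1.90 and was not called (adjusted p = 0.111). Between day 25 and day 14 isografts no member was called, as for all 13678 probe sets, of which limma called 0 and 882 had an unadjusted p under 0.05. Without day 25 isograft replicate 5, 8 probe sets were called.

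Within allografts, at day 14 compared with day 4, 1 of 5 members was called, Pf4, which fell by 0.96 (SE 0.27, adjusted p = 0.0216; 7.99% of probe sets called), and this was lost without day 4 allograft replicate 1 (-0.87, adjusted p = 0.0595) or day 14 allograft replicate 1 (-0.78, adjusted p = 0.0869), and with arrays centred on the reference genes (-0.81, adjusted p = 0.0585). Ppbp differed by -2.45 (adjusted p = 0.128), Cxcl2 by -2.28 (adjusted p = 0.0528) and Cxcl1 by -1.92 (adjusted p = 0.108) over the same days. The Cxcl2 difference passed the threshold without day 14 allograft replicate 5 (-2.77, adjusted p = 0.021) and under 4 other settings, the stricter filter, array weights, gene means and only the arrays compared (adjusted p 0.0246 to 0.0482). Ppbp passed it with array weights (-2.26, adjusted p = 0.0358), with only the arrays compared (adjusted p = 0.0152), and without native replicate 5 and day 25 isograft replicate 5 (-2.45, adjusted p = 0.0155). Of the members, Pf4 alone had a called difference between graft types in the change since day 4, and that change was 1.79 for Ppbp (adjusted p = 0.556), 0.22 for Cxcl2 (adjusted p = 0.951) and 1.20 for Cxcl1 (adjusted p = 0.617). At day 25 compared with day 14, 1 of 5 members was called, Ppbp, which fell by 4.60 (SE 0.97, 24.2-fold lower, adjusted p = 0.00388; 3.08% of probe sets called) with no overlap between the groups (as for 2.11% of probe sets). Cxcl2 differed by -2.50 over these days (adjusted p = 0.059), and passed without day 14 allograft replicate 1 (-2.95, adjusted p = 0.0254) or day 25 allograft replicate 5 (-2.88, adjusted p = 0.0294), while Cxcl5 differed by -1.90 without overlap (adjusted p = 0.314, or 0.0118 with only the arrays compared).

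The change of the allograft minus isograft difference was also tested between day 25 and the earlier days, and 0 of 5 members were called in either comparison (1.07% of probe sets called for day 25 compared with day 14, and 5.18% compared with day 4). The count for day 25 compared with day 14, 146 probe sets, came to 96 without day 14 allograft replicate 3. Cxcl2 changed by -3.41 compared with day 14 (SE 1.05, adjusted p = 0.131) and by -3.18 compared with day 4 (SE 1.05, adjusted p = 0.0786). Without day 25 isograft replicate 2 these were -4.05 (adjusted p = 0.0323) and -3.83 (adjusted p = 0.016), and without day 25 allograft replicate 5 the change since day 4 was -3.56 (adjusted p = 0.0468). Ppbp changed by -3.83 compared with day 14 (SE 1.38, adjusted p = 0.27). Pf4 changed by 1.07 compared with day 4 (SE 0.38, adjusted p = 0.114), and by 1.40 without day 25 isograft replicate 5 (adjusted p = 0.00406, or 0.0037 with native replicate 5 left out too).

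Ordered by group mean, Pf4 was highest in day 4 isografts (11.64, SD 0.25) and day 4 allografts (11.45, SD 0.25), followed by day 14 allografts (10.48, SD 0.50), day 25 allografts (10.01, SD 0.41), day 25 isografts (9.13, SD 0.84), day 14 isografts (8.67, SD 0.09) and native trachea (7.87, SD 0.28). Of neighbours in this order, day 14 allografts differed from day 4 allografts, day 25 allografts from day 25 isografts, and day 14 isografts from native trachea by the test, and the other neighbours either did not or were not compared. Ppbp ran from day 4 allografts (10.32, SD 0.30) and day 4 isografts (9.52, SD 0.65) through day 14 allografts (7.87, SD 1.32), day 14 isografts (5.29, SD 2.37) and day 25 isografts (4.51, SD 3.30) to day 25 allografts (3.27, SD 0.28) and native trachea (2.95, SD 0.23). All neighbours in that order had overlapping arrays. Cxcl2 was highest in day 4 allografts (8.64, SD 0.87) and day 4 isografts (7.97, SD 0.92), and day 25 isografts (6.37, SD 2.16) came next, before day 14 allografts (6.36, SD 1.33), day 14 isografts (5.46, SD 0.30), day 25 allografts (3.85, SD 0.93) and native trachea (3.58, SD 1.38), again with overlap between all neighbours.

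For Cxcl1 and Cxcl5 native trachea stood in the middle of the order, not at its end. Cxcl1 averaged 8.59 (SD 0.60) in day 4 isografts, 8.34 (SD 0.90) in day 4 allografts and 6.42 (SD 1.14) in day 14 allografts, then 6.40 (SD 2.10) in native trachea, 5.47 (SD 0.92) in day 14 isografts, 5.46 (SD 1.48) in day 25 isografts and 5.28 (SD 0.83) in day 25 allografts. Cxcl5 averaged 10.24 (SD 0.60) in day 4 isografts, 10.20 (SD 0.79) in day 4 allografts and 9.35 (SD 0.76) in day 14 allografts, then 8.98 (SD 1.46) in native trachea, 8.34 (SD 1.63) in day 14 isografts, 7.45 (SD 0.34) in day 25 allografts and 7.01 (SD 2.80) in day 25 isografts. Every pair of neighbours overlapped for both genes.

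Arrays of 1 group varied far more for 4 of the members than for a typical probe set. The SD within groups, pooled over the 7 groups, was 1.64 for Ppbp, 1.43 for Cxcl5, 1.25 for Cxcl2 and 1.23 for Cxcl1, against a median of 0.38 over the probe sets tested, and each was larger than that of at least 98.6% of them. Pf4, at 0.44, was larger than 63.5% of them. After each group's mean was removed, Cxcl1 varied with Cxcl5 (r = 0.72 over 35 arrays) and with Cxcl2 (r = 0.64), and Cxcl2 with Cxcl5 (r = 0.58). The pair of genes for platelet granule proteins, Ppbp and Pf4, had r = 0.57. It came to 0.36 without day 25 isograft replicate 5 and day 14 isograft replicate 2, the arrays farthest from their group mean for Ppbp. Cxcl2 and Ppbp had r = -0.02, Cxcl1 and Ppbp r = 0.23, and Cxcl5 and Ppbp r = 0.43. The points of these correlations share arrays and their quality, so they are given as a description.

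Among the receptors, Cxcr2, through which Cxcl1, Cxcl2, Cxcl5 and trimmed Ppbp act, rose in both kinds of graft. It was higher than in native trachea by 0.85 in day 4 allografts (SE 0.19, adjusted p = 0.000404), 0.76 in day 4 isografts (SE 0.19, adjusted p = 0.00141), 0.73 in day 14 allografts (adjusted p = 0.0018) and 0.51 in day 14 isografts (adjusted p = 0.0365), and it differed by 0.27 in day 25 allografts and 0.20 in day 25 isografts, which were not called. Its allograft minus isograft differences were 0.09, 0.22 and 0.07 at days 4, 14 and 25, and none was called. Ackr1, a decoy receptor of erythrocytes and venules that binds these ligands without signalling, was lower than native by -1.16 in day 4 isografts (SE 0.37, adjusted p = 0.0126), and not called in day 4 allografts (-0.54, adjusted p = 0.253). Cxcr3, the T cell receptor of Cxcl9 and Cxcl10, which has also been described as a receptor of platelet factor 4, was higher in allografts than in isografts by 1.35 at day 14 (SE 0.25, adjusted p = 0.000154) and 2.12 at day 25 (SE 0.25, adjusted p = 9.18e-08). Cxcr1 was not analysed here.

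The other listed CXC chemokines, 9 of which were tested, included genes that differed between graft types at day 4. On that day 2 of 9 were higher in allografts and none was lower (0.6% of all probe sets called). At day 14 4 were higher and 2 lower (18.4% called), and at day 25 4 were higher and 2 lower (14.9% called). Their median differences were 0.14, 1.16 and 0.24 at days 4, 14 and 25, against 0.01, 0.05 and 0.01 over all probe sets. The higher ones included Cxcl9, which draws activated T cells (5.10 at day 4, 5.15 at day 14 and 6.20 at day 25, SE 0.41 each), while Cxcl15, a chemokine of lung epithelium whose gene lies between Pf4 and Cxcl1, was lower in allografts by -5.20 at day 14 and -5.33 at day 25 (SE 0.38 each). Cxcl17, an epithelial chemokine, was lower by -6.12 at day 25 (SE 0.49). In the same comparisons, 11 of 12 airway epithelium markers were lower in allografts at day 14 and 12 of 12 at day 25 (medians -3.22 and -6.06), among them the secretory genes Bpifa1 (-11.62 at day 25), Scgb3a1 (-10.20) and Scgb1a1 (-9.76). Cxcl5, which epithelium can also make, was not called in either.

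Of the 14 tested inducers and feedback genes of the NF-kappaB route, 7 were higher than native in day 4 allografts and none was lower. In day 4 isografts 6 were higher and none was lower. All probe sets gave 22.2% higher in these allografts and 21.1% higher in these isografts. Il1b, an interleukin 1 that induces Cxcl1 and Cxcl2, was higher by 4.94 in day 4 allografts and 4.68 in day 4 isografts (SE 0.51 each). Il6 was higher by 5.12 in day 4 allografts and 5.23 in day 4 isografts (SE 0.50 each). Between graft types, 0 of 14 were called at day 4 (0.6% of all probe sets called). In allografts 6 were higher and 1 lower at day 14 (18.4% called), and 1 was higher and 1 lower at day 25 (14.9% called). Median differences of the 14 genes were 0.11, 0.74 and -0.10 at days 4, 14 and 25. Those higher at day 14 included Il1b (1.86, SE 0.51, adjusted p = 0.00835), the receptor Tlr2 (1.19, SE 0.26) and its adaptor Myd88 (1.19, SE 0.26), at a day when Cxcl1, Cxcl2 and Cxcl5 were not called. Within groups the mean of the 22 listed genes varied with Cxcl2 (r = 0.75), Cxcl5 (r = 0.72), Cxcl1 (r = 0.68), Pf4 (r = 0.53) and Ppbp (r = 0.36) over 35 arrays.

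Neutrophil markers went with Cxcl1 and Cxcl2 at day 4 against native trachea, and some went with Cxcl2 alone between graft types at day 25. Of 12 tested markers, 11 were higher than native and 1, Ltf, was lower in day 4 allografts (22.2% of all probe sets higher). The same counts held for day 4 isografts (21.1% higher). Median differences of the markers were 3.88 in allografts and 4.19 in isografts. Cxcr2 is one of these markers. Between graft types, the 12 markers had a median difference of -0.12 at day 25, where 8.53% of all probe sets were lower. On that day, 4 of 12 were lower in allografts than in isografts and none was higher, as for Cxcl2. These were S100a8 (-2.38, SE 0.66), S100a9 (-3.20, SE 0.62), Lcn2 (-3.75, SE 0.60) and Ltf (-9.96, SE 0.53), of which Lcn2 and Ltf are also made by airway glands and epithelium. At day 14, 6 were higher in allografts, among them the gelatinase gene Mmp9 (3.23, SE 0.61), and 1 was lower (18.4% of all probe sets called). Cxcl1, Cxcl2 and Cxcl5 were not called between graft types on that day. The mean level of the 19 markers on the array was 5.17 to 7.26 in day 25 isografts, against 4.70 to 5.47 in day 25 allografts, and its highest value, 7.26, was in isograft replicate 1, the array with the Cxcl2 level of 9.78. The precursor granule genes Elane, Mpo, Prtn3, Camp and Ngp were below the filter, and the part of neutrophil number in the Cxcl2 difference was not tested. Within groups the list varied with Cxcl2 at r = 0.66 over 35 arrays, which came to 0.37 without day 25 isograft replicates 1 and 2, the arrays farthest from their group mean of the list. It varied likewise with Cxcl5 (r = 0.63, or 0.51 without the same arrays) and with Cxcl1 (r = 0.43, or 0.35). For Ppbp r was 0.17 and for Pf4 0.03.

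Most platelet and megakaryocyte markers stayed low in the groups where Ppbp was high. Of 13 markers on the array 9 lay below the filter, and these 9 stayed between 1.29 and 4.76 in all 35 arrays. Among them were the defining genes Itga2b, Gp9, Gp1bb and Gp5 of the platelet integrin and the von Willebrand factor receptor. Itga2b stayed at 2.02 to 2.16 and Gp5 at 1.29 to 1.57, in a range that the authors' background correction sets. The list could therefore hardly register platelet RNA, and its low level does not show that such RNA was absent. Their mean with the 4 others was 4.35 to 4.65 in day 4 allografts and 4.39 to 4.53 in day 4 isografts, against 3.99 to 4.31 in native tracheas. Of the 4 tested, 1 was higher than native in day 4 grafts of both kinds, Gng11, a G protein subunit that other cells also make (0.94 in allografts and 1.07 in isografts, SE 0.17 each). A count of 1 of 4 is near the share of all probe sets called higher, 22.2% in these allografts and 21.1% in these isografts. Between graft types 0 of 4 were called at day 4 (0.6% of all probe sets called) and 2 were lower in allografts at day 14 (18.4% called). At day 25, where 14.9% of all probe sets were called, the matrix gene Thbs1 was higher in allografts (1.84, SE 0.60). The growth factor gene Pdgfa (-0.88, SE 0.26) and the secretion gene Rab27b (-0.80, SE 0.26) were lower. In day 25 isograft replicate 5, with Ppbp at 10.38, the list stood at 4.53, against 4.13 to 4.30 in the other 4 arrays of its group, and its part in the Ppbp level was not tested. Within groups the list varied with Ppbp at r = 0.49 and with Pf4 at r = 0.50 over 35 arrays, which came to 0.31 and 0.38 without day 25 isograft replicate 5 and day 4 allograft replicate 4.

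Macrophage markers moved with Pf4 in several comparisons, but not over the days in allografts. There the mean of the list was 9.10, 9.10 and 9.16 at days 4, 14 and 25, while Pf4 averaged 11.45, 10.48 and 10.01. Of 13 tested markers, 10 were higher than native in day 4 allografts (22.2% of all probe sets higher) and 10 in day 4 isografts (21.1% higher). Between graft types 1 was higher in allografts at day 4 (0.6% of all probe sets called). In allografts 7 were higher and 1 lower at day 14 (18.4% called), and 5 were higher and 2 lower at day 25 (14.9% called). The median differences between graft types were 0.35, 0.86 and 0.80 at days 4, 14 and 25. Adgre1, which encodes a surface receptor typical of mouse macrophages, was higher in allografts by 2.40 at day 25 (SE 0.23), and C1qb, a chain of complement C1q, by 1.73 at day 14 and 2.25 at day 25 (SE 0.25 each). Lyve1, a marker of resident perivascular macrophages and of lymphatic endothelium, was lower by -2.69 at day 25 (SE 0.49). The mean of the 13 markers was 8.71 to 9.48 in day 14 allografts, against 8.14 to 8.43 in day 14 isografts. Within groups it varied with Pf4 (r = 0.81 over 35 arrays, and 0.75 without day 25 isograft replicates 2 and 5), and with Ppbp at r = 0.23. Its part in the Pf4 differences was not tested.

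Lists of other cell types gave the setting of these differences. Between graft types, 0.6%, 18.4% and 14.9% of all probe sets were called at days 4, 14 and 25. Of 8 fibroblast and stromal markers, 0 were called between graft types at day 4, 2 were higher in allografts at day 14, led by Thy1 (1.90), and at day 25 1 was higher (Col1a2, 0.81) and 1 lower. None of the 8 endothelial markers was called on any of the 3 days by limma. Of 10 cartilage markers, 0 were called at day 4, 7 were lower in allografts at day 14, led by Chad (-3.83), and 1 was higher at day 25, and of 5 tested skin markers 1 was called, Krt14, lower at day 25 (-3.56). Of all lists, the mean of the skin markers varied most with Ppbp within groups (r = 0.56 over 35 arrays, and 0.51 without native replicate 5 and day 25 isograft replicate 5), and its part in the Ppbp levels was not tested. The 8 reference genes used for scaling gave 0 calls between graft types on the 3 days, but some were called elsewhere. Gusb was higher than native in every graft group (0.91 to 1.64). Sdha was lower than native by -1.55 in day 4 allografts, -1.72 in day 4 isografts and -1.22 in day 25 isografts. Polr2a was lower than native by -0.71 in day 14 allografts and -0.47 in day 25 allografts. Hprt was higher than native by 0.76 in day 4 allografts and 0.66 in day 4 isografts. Hprt differed by -0.52 in isografts and -0.79 in allografts at day 14 compared with day 4. Tbp, Rplp0, Ywhaz and Eef2 were not called in these comparisons. Centring on the 8 genes carries such changes into those comparisons.

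**Figure D4:**
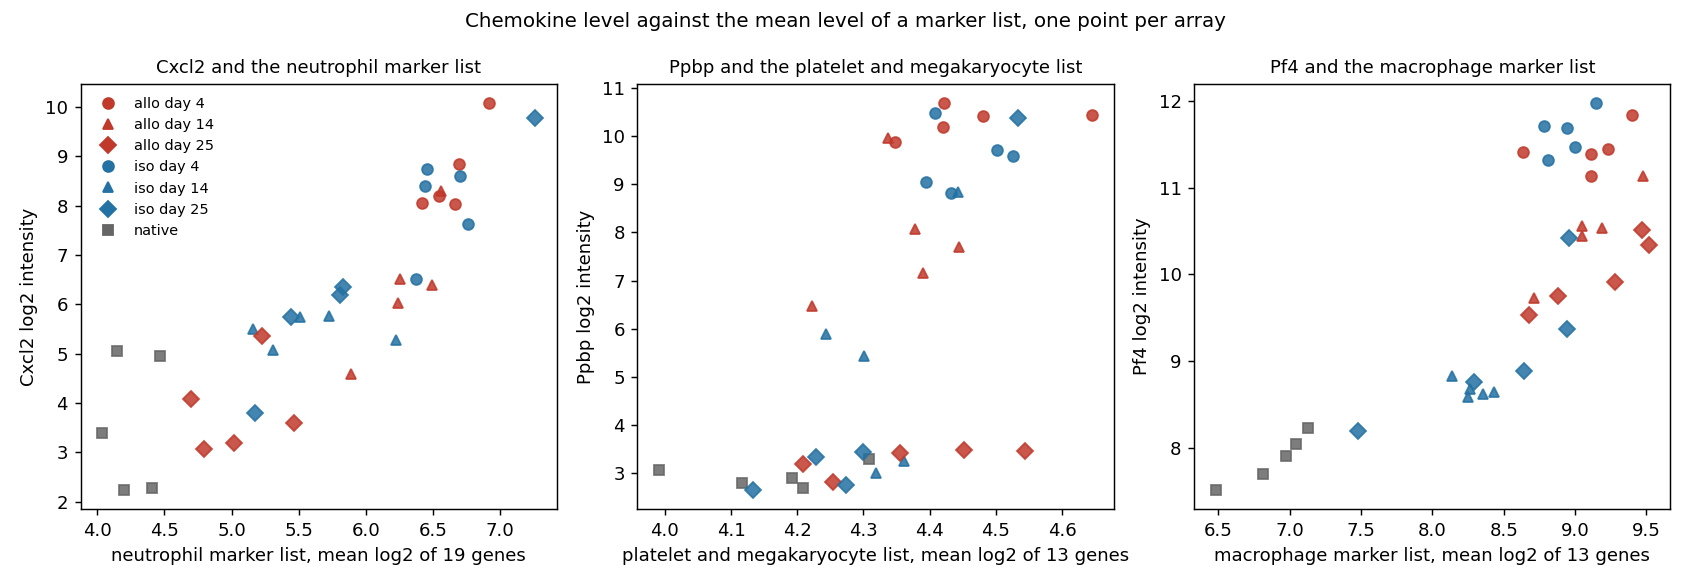
Level of Cxcl2, Ppbp and Pf4 (y axes, log2 intensity) against the mean log2 level of the neutrophil, platelet and megakaryocyte, and macrophage marker lists (x axes), with 1 point for each of the 35 arrays, coloured by graft type and shaped by day. Cxcl2 and the neutrophil list are both highest in the day 4 grafts and in 1 day 25 isograft. Ppbp spans 2.66 to 10.69, while the platelet list, with 9 of its 13 genes below the filter, stays between 3.99 and 4.65. Pf4 and the macrophage list are lowest together in native trachea.

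The genes with the pattern most like each member over the 35 arrays, of 8312 compared, were found by Pearson's r, which the differences between groups dominate. For Cxcl1 they were Pvr (r = 0.81), Cxcl5 (r = 0.81) and Tubb6 (r = 0.80). For Cxcl2 they were the chemokine Ccl3 (r = 0.88), Slfn4 (r = 0.86) and Ero1a (r = 0.84). For Cxcl5 they were Cxcl1, Nfil3 (r = 0.71) and the NF-kappaB-related gene Bcl3 (r = 0.71). Ppbp had the pattern of Arg1 (r = 0.90), the arginase of alternatively activated macrophages, and of the mitotic genes Plk1 (r = 0.90) and Cep55 (r = 0.89), and Pf4 that of the replication gene Mcm6 (r = 0.97), the protease inhibitor Timp1 (r = 0.96) and the chemokine Ccl9 (r = 0.96). None of the 5 members was among the 3 most like genes of Ppbp or Pf4.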

How the data were processed

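Tracheal RNA was measured on 35 arrays. The authors made the deposited log2 intensities with GCRMA 1.1.3, per the submitters' processing notes, which models and removes nonspecific signal, puts the arrays on one scale and gives 1 value per probe set, so low levels depend on that model. The values were used as deposited, with no further logarithm or pseudocount, and the number of arrays limits the precision. Of 22690 probe sets 64 controls were set aside, and of the other 22626 the annotation gave 20380 exactly 1 gene, 691 several and 1555 none. A limma 3.58.1 model (R 4.3.3) took the mean of each of the 7 groups from all arrays (28 residual degrees of freedom), and p-values were adjusted by Benjamini-Hochberg over the 13678 probe sets tested in each of 16 comparisons. A probe set was called at an adjusted p under 0.05. The procedure was tested on simulated data.

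Where a listed gene had several probe sets, the one of highest mean stood for it. The members and lists were chosen with earlier results of these data known. Named genes were the members, the receptors, up to 3 of each list with the largest called differences between graft types, and the 3 genes most like each member, while Il6, S100a8, S100a9, Gng11 and the markers below the filter were named after their values were seen. Alternatives were other filters, array weights, other centrings, repeated quantile normalization, an intensity trend with robust variance, a replicate block, only the arrays compared, gene means, a stricter threshold and leaving out arrays. Promoter windows and gene order came from RefSeq (GRCm38.p6), searched with Python 3.11.15.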

Additional observations from a re-analysis of the deposited data

Results flagged for a closer look

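Ppbp in day 25 isograft replicate 5 stood apart from the other arrays of its group, at 10.38 against a nearest value of 3.43, a gap of 0.899 of the group's range, where Dixon's 95% critical value for 5 arrays is 0.71. In a single look chance passes that value about 1 time in 20, and 35 combinations of gene and group were looked at. This was the 1 past it, a number that chance alone can give over so many looks. In the same array Pf4 was the highest of its group at 10.42, the skin marker list stood at 5.60 and the platelet and megakaryocyte list at 4.53.

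The allograft minus isograft difference of Pf4 was larger at day 14 than at day 4 by 2.00 (SE 0.38, adjusted p = 0.000799 by limma), tested as an interaction term. It was 1.81 at day 14 and -0.19 at day 4, with all 5 day 14 allografts above all 5 day 14 isografts. The change was 1.84 to 2.19 when any 1 array of the 4 groups was left out.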

How the results depend on the processing

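Most member results kept their side of the threshold: 846 of those under another setting and 917 of those with 1 array left out did. Of the rest, 26 and 15 became called, 8 and 18 were no longer called, and no called difference reversed. Some differences that were not called changed sign with 1 array left out. Between graft types, Cxcl1 at day 4 ranged from -0.56 to 0.07 and Ppbp at day 25 from -1.70 to 0.23. The cause of these changes was not tested. Replicate numbers did not pair the arrays (median r 0.04 over 105 same-numbered pairs, -0.42 to 0.47), and each array correlated best with its own number in 44 of 210 looks. With the replicate number as a block, 86, 2540 and 2040 probe sets were called between graft types at days 4, 14 and 25, against 82, 2514 and 2039 without it, and no member call changed.

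Between graft types, Ppbp at day 14 was called with array weights (2.42, adjusted p = 0.0235) and without native replicate 5 and day 25 isograft replicate 5 (2.59), and gave 2.02 to 3.48 with 1 array left out. With only the 10 arrays compared, Cxcl2 (-2.52) and Pf4 (0.88) at day 25 were not called; with 1 array left out they gave -3.16 to -1.67 and 0.65 to 1.21. The day 4 count of 82 came to 51 with only the arrays compared, 42 over gene means and 52 at an adjusted p under 0.01, where the day 14 count of 2514 came to 1608. Array weights, which lower the weight of native replicate 5 and day 25 isograft replicate 5, also called lower Cxcl1 and Cxcl5 at day 25 against native trachea (-2.15 and -2.31 in allografts, -2.62 and -3.98 in isografts), and moved the day 25 isograft count against native trachea to 3549, against 2203. They also called 1843 probe sets between day 14 and day 4 allografts, against 1093, and 1433 and 1287 changes of the graft-type difference since day 4 at days 14 and 25, against 873 and 708. Without native replicate 5 and day 25 isograft replicate 5, 11 probe sets were called between day 25 and day 14 isografts, against 0. The other counts that moved by over 1.5 times under a setting did so with another filter or gene means, which change the number tested, or with the stricter threshold. Cxcl2 was also called between day 25 and day 14 allografts under the stricter filter (-2.50), array weights (-2.67) and reference-gene centring (-2.59), and between day 14 isografts and native trachea under both centrings (2.05 and 2.00) and with only the arrays compared (1.89). Centring on the reference genes moved the median of all probe sets by up to 0.17, for isografts at day 14 against day 4 (0.13, against -0.03), and turned the sign of no called member difference. Levels near the bottom of the scale, such as native Ppbp and Cxcl2, limit the folds.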
